A study of Mus musculus with 6 samples.

Results

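The choroid plexus genes described here encode secreted, shed and matrix proteins: Enpp2, Sostdc1, Wfdc2, Ace, Sulf1, Col8a1, Col8a2, Col9a3, F5 and Igf2. They were taken by gene symbol, and all 10 were found among the 475 genes that the authors listed as changed in the mouse hippocampus. The genes were chosen by their CI-994 and vehicle values in this same table, so their direction and size are given as a description, without a test. RNA was sequenced from the whole hippocampus of one hemisphere in C57Bl/6 mice aged 4 months, 3 mice per group. All mice had been fear conditioned to a context, had recalled that memory, and had gone through spaced extinction training. One group was injected daily with CI-994 at 30 mg/kg, a compound of the benzamide class that inhibits class I histone deacetylases, the enzymes that take acetyl groups off histones. The other group was injected daily with the vehicle of CI-994 and had otherwise the same history. Tissue was taken 1 h after the last extinction session, so by design the groups differ in the compound over the whole of extinction training. They also differed in the sex-linked genes Ddx3y and Xist, whose values are given below.

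The choroid plexus is a folded sheet of epithelium around a core of capillaries and connective tissue, and it secretes the cerebrospinal fluid. Its epithelium releases growth factors, enzymes and carrier proteins into that fluid, and the epithelium together with its stroma lays down a matrix. In the lateral ventricle the plexus is attached along the fimbria, next to the hippocampus. In whole tissue, the amount of choroid plexus included, more RNA per choroid plexus cell and RNA from other cells cannot be told apart. Of the 10 genes, 7 are not on the list of epithelial markers used below, and Igf2 is on the list for meninges.

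For each gene the table holds 1 value for CI-994 and 1 for vehicle, in arbitrary units, with no value per mouse, no error and no sequencing depth. The p-values quoted are those of the authors' deposited table, whose entries stay under 0.05 and include 6 given as 0. It lists changed genes only, so a gene outside it may have been unchanged, too low to test or not tested. Directions follow the labelled group values. The authors' deposited log2 column, headed as CI-994 against vehicle, has the opposite sign in all 475 genes, and if its header were right and the group labels exchanged, every direction below would turn around. Of the 475 genes 199 were higher and 276 lower in CI-994. The Y-linked gene Ddx3y was at 7.73 units in vehicle and 0.0503 in CI-994, and Xist, transcribed from the inactive X chromosome, at 8.46 and 25.3 units. The sex of the mice is not stated in the labels. Any difference in sex between the groups cannot be told apart from the compound in these group values. How far such a difference enters the values below was not tested. The hippocampal markers C1ql2, of dentate granule cells, and Wfs1, of CA1 pyramidal cells, were present in the table at 10.5 and 42.6 units in CI-994 and at 52.5 and 71.0 units in vehicle. Xist, Ddx3y, C1ql2 and Wfs1 were picked after their values were seen.

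All 10 genes were higher in CI-994 than in vehicle, where 41.9% of the listed genes were. Their log2 ratios (CI-994 over vehicle throughout) ran from 1.36 for Col9a3 to 2.90 for F5, with a median of 2.29, while the median of all listed genes was -0.34 and that of the 199 higher genes 0.82. All 10 were also at least 2-fold higher, as were 16.8% of the listed genes. In the order of all 475 ratios they stood between the 13th and 50th largest increase. These shares were fixed in part by the choice of the genes, and nothing is read from them. With 1 unit added to both values the median log2 ratio of the 10 genes was 1.55 and that of all listed genes -0.33, and 3 of the 10 were under 1 unit in vehicle.

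**Figure D1:**
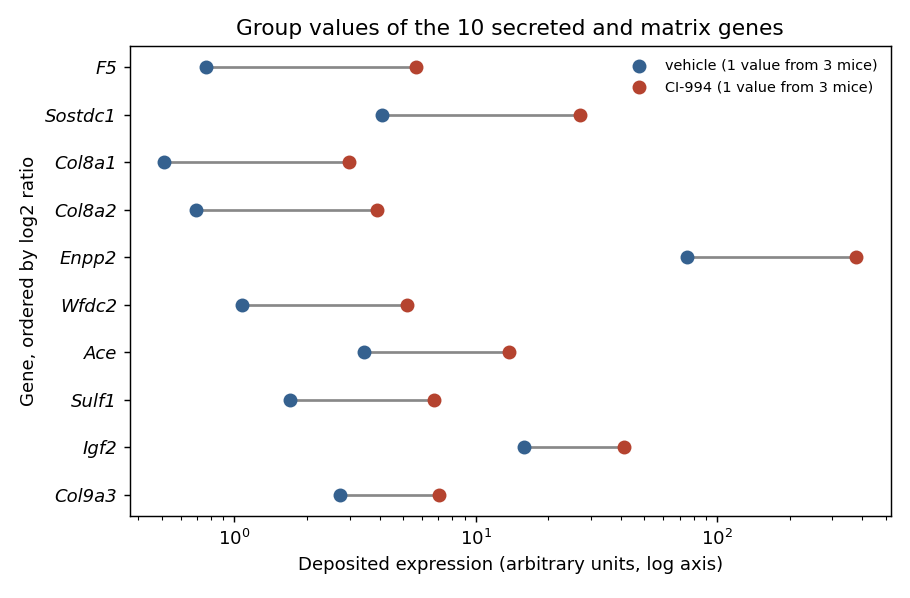
Deposited expression of the 10 genes in arbitrary units on a log axis, with blue points for vehicle and red points for CI-994, each 1 value that the authors made from 3 mice. Every red point lies to the right of its blue point, by 2.57-fold for Col9a3 up to 7.45-fold for F5. No error bars are drawn because no value per mouse was given.

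Of the 3 enzymes, Enpp2 had the largest ratio. Enpp2 encodes autotaxin, a secreted phosphodiesterase that makes the signalling lipid lysophosphatidic acid. Its value was 377.0 units with CI-994 and 75.3 with vehicle, a 5.00-fold difference (log2 ratio 2.32), with a p of 3.77e-11 in the authors' deposited table. Its locus in that table lies on chromosome 15 from 54670452 to 54751701 (mm9). Ace, the angiotensin-converting enzyme, is a peptidase anchored in the membrane and shed from it, which turns angiotensin I into angiotensin II. It was at 13.8 units with CI-994 and 3.46 with vehicle, or 3.98-fold higher (log2 ratio 1.99), and its p is given as 0 in the authors' deposited table. The Ace locus is on chromosome 11 from 105829258 to 105851278 (mm9). Sulf1, an extracellular sulfatase that removes 6-O-sulfate groups from heparan sulfate and so alters how growth factors bind to it, was at 6.74 units with CI-994 and 1.70 with vehicle. That is 3.95-fold higher (log2 ratio 1.98), with a p of 3.8e-11 in the authors' deposited table, at a locus on chromosome 1 from 12682510 to 12850453 (mm9). The log2 ratios of Ace and Sulf1 were 0.010 apart, and 0.21 apart with 1 unit added to both values, and Enpp2 lay above both in either case. Without a spread between mice, none of these distances can be set against an error.

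Both secreted signalling proteins were higher, by unequal amounts. Sostdc1, a secreted antagonist of bone morphogenetic proteins that also modulates Wnt signalling, was at 27.2 units with CI-994 and 4.08 with vehicle. The 6.65-fold difference (log2 ratio 2.73) was the second largest of the 10 genes, and its p is given as 0 in the authors' deposited table. Sostdc1 has a compact locus of 4.28 kb on chromosome 12 from 37040755 to 37045039 (mm9). Igf2 encodes insulin-like growth factor 2, a ligand of the insulin-like growth factor 1 receptor that the choroid plexus releases into the cerebrospinal fluid. In mice the gene is imprinted in most tissues, and choroid plexus and leptomeninges are known exceptions in which both parental alleles are transcribed. It was at 41.1 units with CI-994 and 15.8 with vehicle, or 2.60-fold higher (log2 ratio 1.38), with a p of 1.32e-09 in the authors' deposited table. Its locus there is on chromosome 7 from 149836672 to 149856261 (mm9). The nearest gene of the table to Igf2 was the imprinted cell cycle inhibitor Cdkn1c, 788 kb away, at 6.31 units with CI-994 and 3.13 with vehicle (log2 ratio 1.01).

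Wfdc2 and F5 encode secreted proteins of other kinds. Wfdc2 is a small secreted protein with whey acidic protein domains, a fold found in protease inhibitors. It was at 5.18 units with CI-994 and 1.08 with vehicle, or 4.80-fold higher (log2 ratio 2.26), at a locus of 5.79 kb on chromosome 2 from 164388215 to 164394006 (mm9). Its p of 0.00703 in the authors' deposited table was the largest of the 10 genes, of which the other 9 had a p of at most 5.84e-06 there. F5, coagulation factor V, is the cofactor with which factor Xa turns prothrombin into thrombin, and it is made mainly by the liver. F5 was at 5.67 units with CI-994 and 0.762 with vehicle, a 7.45-fold difference (log2 ratio 2.90) and the largest of the 10, and its p is given as 0 in the authors' deposited table. With 1 unit added to both values its log2 ratio was 1.92, below those of Sostdc1 (2.47) and Enpp2 (2.31). The place of F5 at the head of the order thus depended on how low values were treated. A p of at most 0.001 in the authors' deposited table was held by 9 of the 10 genes, against 25.9% of all listed genes in either direction and 14.5% that were also higher in CI-994. The genes were chosen from this same comparison, so nothing is read from these shares.

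The 3 collagen genes comprised both chains of collagen VIII, Col8a1 and Col8a2, and Col9a3, which had the smallest ratio. Col8a1 and Col8a2 encode the alpha chains of collagen VIII, a short-chain collagen that forms hexagonal networks in Descemet's membrane of the cornea and occurs in vessel walls. Col8a1 was at 2.97 units with CI-994 and 0.512 with vehicle, or 5.80-fold higher (log2 ratio 2.54, p = 1.54e-09 in the authors' deposited table). Col8a2 was at 3.90 and 0.691 units, or 5.65-fold higher (log2 ratio 2.50, p = 4.4e-10 in the authors' deposited table). The 2.54 and 2.50 of the collagen VIII chains were 0.040 apart, and with 1 unit added to both values they were 1.39 and 1.54, with Col8a2 the higher. The genes lie on different chromosomes, Col8a1 on chromosome 16 from 57624368 to 57754850 and Col8a2 on chromosome 4 from 125964037 to 125991574 (mm9). The coding length of the longest annotated transcript is 2232 bases for Col8a1 and 2097 bases for Col8a2, each on 4 exons (GENCODE M21). Col9a3 encodes the alpha 3 chain of collagen IX, a collagen known from cartilage, where it sits on the surface of collagen II fibrils. It was at 7.07 units with CI-994 and 2.75 with vehicle, 2.57-fold higher (log2 ratio 1.36, p = 5.84e-06 in the authors' deposited table), at a locus on chromosome 2 from 180332926 to 180377396 (mm9). Of 44 collagen genes looked for, these 3 were the only ones in the table. The partners of Col9a3 in collagen IX, Col9a1 and Col9a2, were not in it, nor were the chains of the fibrillar collagens I and III or of the basement membrane collagen IV.

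The 250 bases upstream of the annotated start are shown for 4 of the genes: F5 with the largest ratio, the chains of collagen VIII, and Ace. Direction did not set them apart, since all 10 genes were higher in CI-994. For Ace, which has several annotated starts, the first window is shown. The sequences are from RefSeq on build GRCm38.p6, read 5′ to 3′ on the strand of the gene, and end at the base before the start site. Capitals mark matches on either strand to TAATCC, the core bound by OTX factors, to GGGCGG, the GC box, to TATAAA, the TATA box, and to CACGTG, the E-box.
F5, chr1:164151585-164151834, plus strand: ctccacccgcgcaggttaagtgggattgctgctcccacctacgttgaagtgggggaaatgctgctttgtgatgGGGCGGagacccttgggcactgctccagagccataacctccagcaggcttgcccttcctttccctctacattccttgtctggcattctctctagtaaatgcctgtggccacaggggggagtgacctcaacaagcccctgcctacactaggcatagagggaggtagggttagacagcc
Col8a1, chr16:57754738-57754987, minus strand: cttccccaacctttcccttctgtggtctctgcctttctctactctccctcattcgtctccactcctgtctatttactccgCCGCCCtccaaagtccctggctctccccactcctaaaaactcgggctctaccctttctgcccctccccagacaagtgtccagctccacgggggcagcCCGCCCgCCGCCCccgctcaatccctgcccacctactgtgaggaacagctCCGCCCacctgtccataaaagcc
Col8a2, chr4:126286544-126286793, plus strand: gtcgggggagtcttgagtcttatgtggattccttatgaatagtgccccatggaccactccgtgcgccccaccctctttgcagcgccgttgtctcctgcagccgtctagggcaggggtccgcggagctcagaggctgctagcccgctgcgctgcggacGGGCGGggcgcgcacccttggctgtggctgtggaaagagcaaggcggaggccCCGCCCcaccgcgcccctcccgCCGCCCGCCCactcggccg
Ace, chr11:105967698-105967947, plus strand: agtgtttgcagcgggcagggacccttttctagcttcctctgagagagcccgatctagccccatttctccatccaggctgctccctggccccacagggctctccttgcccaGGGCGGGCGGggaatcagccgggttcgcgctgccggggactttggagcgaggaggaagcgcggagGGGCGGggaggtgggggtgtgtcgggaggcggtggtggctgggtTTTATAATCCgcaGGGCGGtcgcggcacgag
The Ace window shown holds TAATCC from position -27 to -22 before the start site, overlapping by 2 bases with the reverse complement of TATAAA at -31 to -26. It also holds 4 GC boxes, a pair of which overlap at -140 to -131. The Col8a1 and Col8a2 windows hold 4 GC boxes each and the F5 window 1, and in Col8a2 the boxes at -19 to -14 and -15 to -10 overlap. Upstream windows were available for 6 of the 10 genes, with 11 annotated starts between them, since Igf2, Ace and Wfdc2 have several. GGGCGG was found in 8 of the 11 windows, against 32.7% of the 32851 windows of all genes. All 6 genes had a window with it, but no share per gene over all genes was computed to set beside that count. TAATCC was found in 1 of the 11, as was TATAAA, in both cases the Ace window shown, against 6.25% and 12.4% of all windows. The other Ace window, at chr11:105974939-105975188, held none of the 4 motifs. CACGTG was in 0 of the 11 and in 6.02% of all windows. By base composition the 4 windows shown had a GC content of 57.2% for F5, 60.8% for Col8a1, 67.2% for Ace and 70.0% for Col8a2, and the median over all windows was 52.4%. These are counts of letters in the reference, and the windows of the Wfdc2 starts share nearly all of their sequence. Binding was not measured.

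The epithelial markers of the choroid plexus that were in the table were higher in CI-994. Of 27 markers, 23 were in the table, 3 of them among the 10 genes. All 23 were higher, against 41.9% of all listed genes. The list was chosen with earlier results of these data known, so this count is only a description. The 4 markers not in the table were Ttr, Slc29a4, Lmx1a and Krt8. The 20 markers other than Sostdc1, Enpp2 and Wfdc2 had a median log2 ratio of 2.74, from 0.63 for Car12 to 4.00 for Tmem72, beside the median of 2.29 and the range of 1.36 to 2.90 for the 10 genes. The largest ratios belonged to Tmem72 (3.58 units with CI-994 and 0.223 with vehicle), the bicarbonate transporter Slc4a5 (4.43 and 0.279 units), the metalloreductase family member Steap1 (5.32 and 0.372 units) and the water channel Aqp1 (5.44 and 0.403 units). The potassium channel subunit Kcne2 was at 11.3 and 0.889 units, and the potassium channel Kcnj13 at 22.1 and 1.98 units. No secreted or matrix gene reached the ratios of those 6 markers, which ran from 3.48 to 4.00. Under 1 unit in vehicle were 11 of the 20 markers and 3 of the 10 genes, against 7.79% of all listed genes. Among genes of at least 1 unit in both groups the order of the medians turned, with 1.99 for 7 of the 10 genes and 1.54 for 9 of the 20 other markers. A difference between the secreted and matrix genes and the other markers was not tested, as both sets were known from the same comparison. Genes of the table with at least 1 unit in both groups and a ratio closest to the median of the 10 were Rdh5, a retinol dehydrogenase (2.36), Ccdc135 (2.05), the chloride channel family member Clic6 (2.76), the glucose transporter family member Slc2a12 (1.82) and Calml4 (1.80). Likeness here is the distance between log2 ratios of 1 comparison of 2 groups, and Clic6 and Calml4 were themselves on the marker list.

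**Figure D2:**
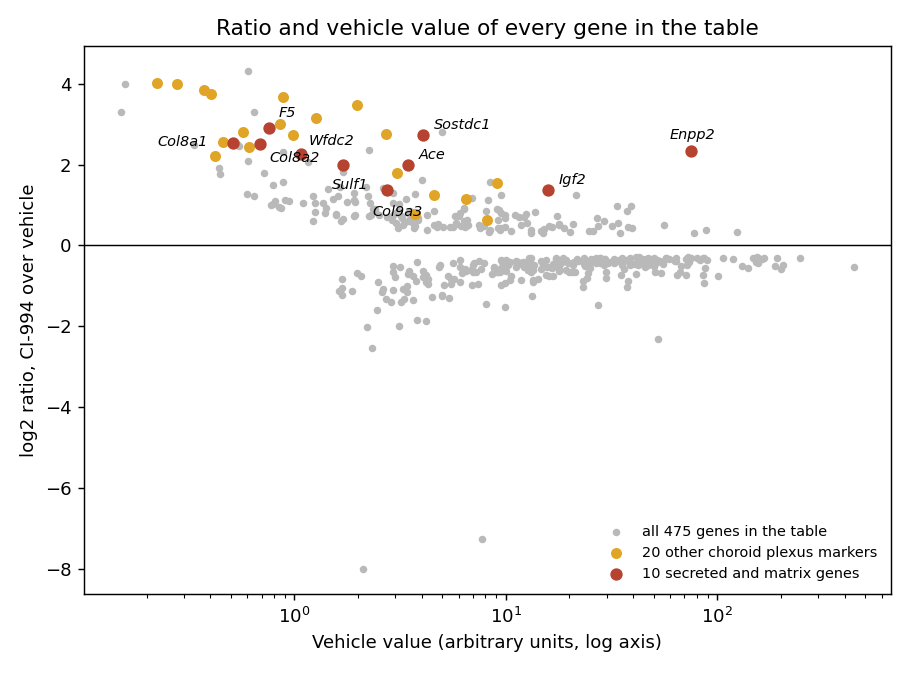
Log2 ratio (CI-994 over vehicle) plotted against the vehicle value in arbitrary units on a log axis, for all 475 genes (grey), 20 other choroid plexus markers (yellow) and the 10 secreted and matrix genes (red, named). All red and yellow points lie above 0. The vehicle value enters both axes, and whether it is scaled by transcript length is not stated.

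Few markers of neighbouring tissues were listed, and they stood in both directions. Of 20 markers of meninges and perivascular fibroblasts 5 were in the table, and Igf2, at a log2 ratio of 1.38, was the single higher one. The prostaglandin D synthase Ptgds was at 307 units with CI-994 and 443 with vehicle (log2 ratio -0.53), the gap junction protein Gjb2 at 2.04 and 3.74 (-0.88), the matrix proteoglycan Fmod at 1.54 and 3.41 (-1.14), and the retinoic acid synthesising enzyme Aldh1a2 at 1.17 and 2.60 (-1.15). The fibroblast genes Dcn, Lum, Col1a1, Col1a2 and Col3a1 were not in the table. Of 16 symbols of ependymal markers 1 was in the table, 1700009P17Rik at 4.68 units with CI-994 and 2.27 with vehicle (log2 ratio 1.04). The list also holds Cfap126, a newer name of that same gene. The ciliary regulator Foxj1 was not in the table. Endothelium and pericytes were represented by 1 of 17 markers, the von Willebrand factor gene Vwf (log2 ratio -0.51), and the oligodendrocyte lineage by 1 of 14, Hapln2 (0.72). How much each cell type contributed to the values of the 10 genes was not tested.

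Few partners of the 10 proteins in their pathways were in the table. For lysophosphatidic acid signalling, 21 symbols were looked for. They include other members of the Enpp family, and older and newer names of the same phosphatase genes (Ppap2 and Plpp). Enpp2 was the single one listed, and none of the receptors Lpar1 to Lpar6 was. Ace was likewise the single one of 16 genes of the renin-angiotensin system, without the precursor Agt or the receptors Agtr1a and Agtr2. Of 32 coagulation genes only F5 and Vwf were listed, with Vwf at 2.05 units with CI-994 and 2.92 with vehicle, and neither prothrombin (F2) nor factor X (F10) was. For insulin-like growth factors, 4 of 24 genes were listed, 2 higher and 2 lower. The binding protein Igfbp2 was at 50.6 units with CI-994 and 21.5 with vehicle (2.35-fold higher, log2 ratio 1.24, p = 1.38e-09 in the authors' deposited table), beside 1.38 for Igf2. Igfbp5 (25.2 and 41.1 units, log2 ratio -0.70) and Igfbp4 (38.7 and 64.7 units, -0.74), binding proteins of the same family, were lower. The receptors Igf1r and Igf2r were not listed. Of 26 antagonists of bone morphogenetic protein and Wnt signalling 4 were listed, again 2 higher and 2 lower. Beside Sostdc1 the Wnt antagonist Sfrp1 was higher (2.70 and 1.41 units, log2 ratio 0.93), while Nbl1 (59.2 and 87.4 units, -0.56) and Grem1 (0.548 and 2.22 units, -2.02), both antagonists of bone morphogenetic proteins, were lower. Among 31 genes of heparan sulfate proteoglycans and their modifying enzymes 4 were listed. The sulfotransferase Hs6st2, which adds the 6-O-sulfate that Sulf1 removes, was at 11.05 and 8.44 units (log2 ratio 0.39), and the glypican Gpc4 (-0.57) and the sulfotransferase Ndst4 (-0.70) were lower. Of 25 genes of whey acidic protein domain proteins, protease inhibitors and their families 3 were listed, and not all of the 25 encode secreted inhibitors. The 3 were Wfdc2, the Kunitz-type inhibitor Spint2 (24.2 and 13.7 units, log2 ratio 0.82) and the serpin family member Serpinf1 (6.59 and 11.8 units, -0.84). The 3 collagens in the table are all among the 10 genes, so their shared direction was fixed by the choice. Apart from them and the choroid plexus markers, no list had more than 2 genes higher in CI-994 or more than 5 genes in the table. Such counts are too small to set against the 41.9% of listed genes that were higher.

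**Figure D3:**
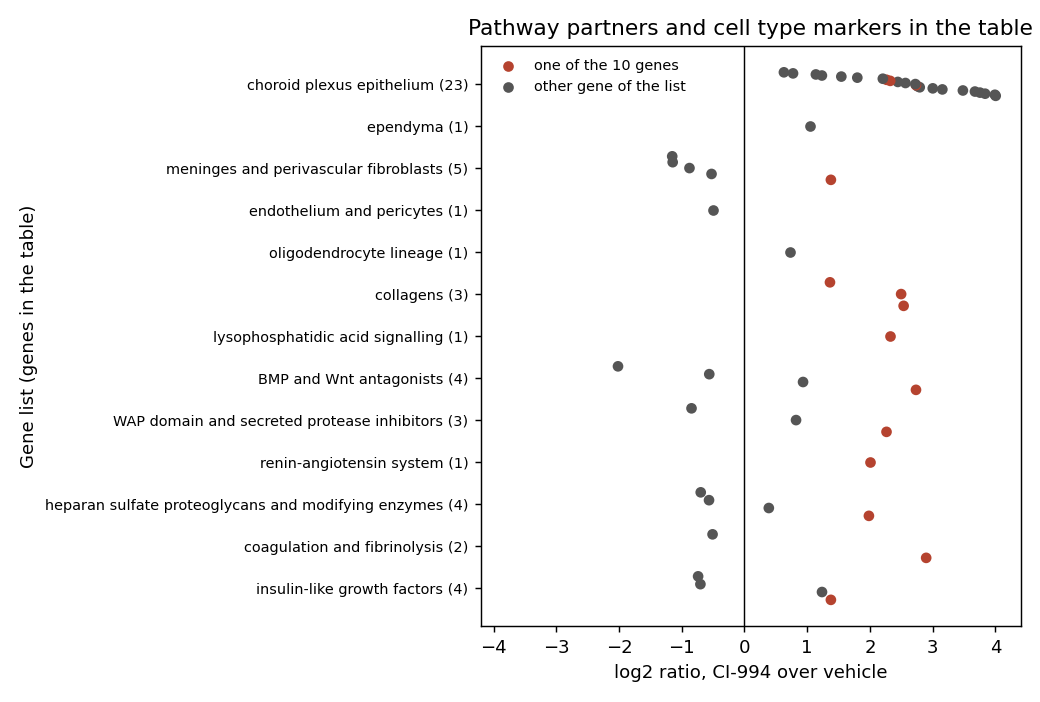
Log2 ratios (CI-994 over vehicle) for the genes of 13 lists that were in the table, with 1 row per list, the number of its genes in the table in brackets, red points for the 10 secreted and matrix genes and grey points for other genes of the list. All 23 choroid plexus markers and the 3 collagens lie to the right of 0, the 4 meningeal markers other than Igf2 lie to the left, and genes of the insulin-like growth factor and antagonist lists lie on both sides.

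The 10 genes were spread over 8 chromosomes, with at most 2 on the same one. The nearest listed gene lay 573 kb or more away for 9 of them. The exception was Ace, whose neighbour Cyb561, a transmembrane cytochrome, lay 23.8 kb away and was at 29.9 units with CI-994 and 20.7 with vehicle (log2 ratio 0.53, p = 0.00241 in the authors' deposited table). Of the 10 nearest listed genes 6 were lower and 4 higher in CI-994, where 41.9% of all listed genes were higher. The count is near that share, and nothing is read from it. The lower ones were Aard beside Enpp2 (log2 ratio -1.40), Nsun3 beside Col8a1 (-1.36), Stxbp6 beside Sostdc1 (-1.03), Slc13a3 beside Wfdc2 (-0.64), Gorab beside F5 (-0.61) and Grik3 beside Col8a2 (-0.44). The higher ones were Cdkn1c beside Igf2 (1.01), Lime1 beside Col9a3 (0.86), Sgk3 beside Sulf1 (0.66) and Cyb561 beside Ace. Loci ran from 4.28 kb for Sostdc1 to 168 kb for Sulf1.

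For 2 of the 10 genes the locus in the table was much wider than the annotated gene. The F5 locus spans 105.011 kb, and the F5 gene 68.4 kb in GENCODE M21 on GRCm38, whereas F5 and the adjacent P-selectin gene Selp together span 105.014 kb. The Col9a3 locus spans 44.5 kb and the gene 24.4 kb, and with the transcription factor gene Tcfl5, which overlaps its end on the other strand, it spans 44.9 kb. The Igf2 locus is 19.6 kb and the gene 16.1 kb, and the protein-coding gene Gm49394 and the antisense transcript Igf2os overlap it. Selp, Tcfl5, Gm49394 and Igf2os had no entry of their own in the table. As no source used here states how strand was handled, reads of Igf2 and Igf2os, and those where Col9a3 and Tcfl5 overlap, cannot be told apart. Gm49394 overlaps Igf2 on the same strand, so strand would not separate their reads. Whether reads of Selp entered the F5 value is not stated. F5 itself is overlapped by the long noncoding RNA gene Gm16548 on the other strand and by the processed pseudogene Gm16588 on its own strand. The microRNA gene Mir483 also overlaps Igf2. Ace is overlapped by an antisense transcript (Gm11651), and Enpp2 by a divergent one (Gm26684). The Enpp2 locus, at 81.2 kb, was narrower than the 114 kb of the annotated gene. The loci of Sostdc1, Wfdc2, Ace, Sulf1, Col8a1 and Col8a2 were 0.950 to 1.00 times the annotated span, and Sostdc1, Wfdc2, Sulf1, Col8a1 and Col8a2 have no overlapping annotated gene.

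**Figure D4:**
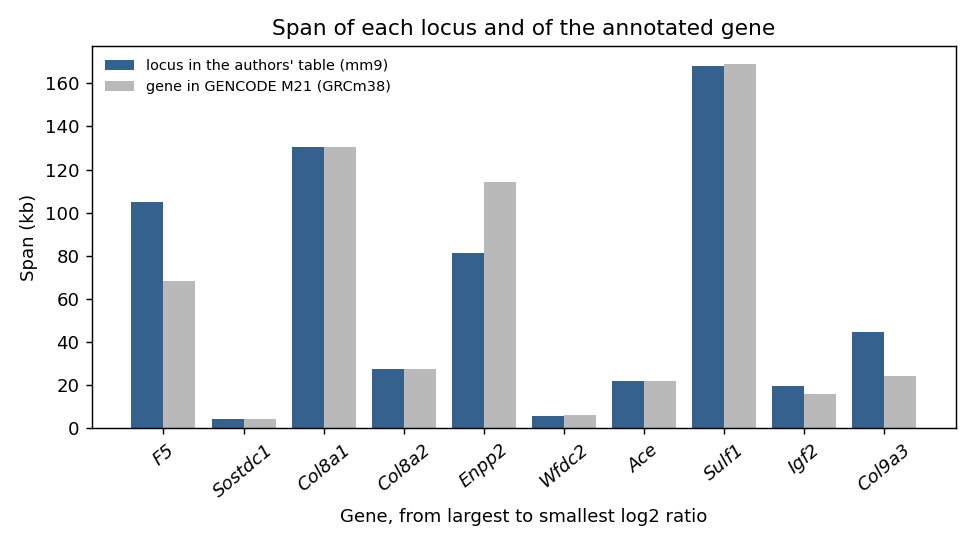
Span in kb of each locus in the authors' table (blue, mm9) and of the annotated gene (grey, GENCODE M21 on GRCm38), with the genes in the order of their log2 ratio. The blue bar clearly exceeds the grey one for F5 (105 against 68.4 kb), Col9a3 (44.5 against 24.4 kb) and Igf2 (19.6 against 16.1 kb). It falls clearly short of the grey bar for Enpp2 (81.2 against 114 kb).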

How the data were processed

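RNA sequencing reads of 3 CI-994 and 3 vehicle mice were processed with TopHat and Cuffdiff on build mm9, per the submitters' processing notes. No source used here states the versions, the gene annotation, the normalisation or the strand handling. The authors deposited 1 expression signal per gene and group in arbitrary units, per the file headers, with the 3 libraries of a group combined. Whether the unit is scaled by transcript length is not stated, so levels were not ranked between genes, and the limit of 1 unit serves only as a filter on low values. The deposited p-value column is not called adjusted in its header. The deposited log2 column equals log2(vehicle/CI-994) within 0.0001 in all 475 genes, so ratios were recomputed from the group values as CI-994 over vehicle. No depth, replicate error or test of samples could be computed.

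Python 3.11.15, numpy 2.4.6, pandas 2.3.3 and matplotlib 3.10.9 were used, and ratio and motif functions were tested on simulated data. The 10 genes, 13 lists and 4 motifs were chosen with earlier results of these data known. Lists were matched by symbol, so a gene entered under another name would be counted as not in the table. Named genes were the 10, up to 6 others per list by absolute log2 ratio and the 5 closest ratios. List members outside the table, ends of ranges and nearest listed genes were named beyond that rule. Annotation came by symbol from GENCODE M21 (10 of 10 matched) and upstream sequence from RefSeq (6 of 10), both on GRCm38. Alternatives were pseudocounts, p limits of 0.01 and 0.001, and a minimum of 1 unit.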

Additional observations from a re-analysis of the deposited data

How the results depend on the processing

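The count of 10 genes higher, and of 10 at least 2-fold higher, was 10 at p up to 0.01 and with a pseudocount of 1, 9 at p up to 0.001 (without Wfdc2) and 7 with at least 1 unit in both groups (without F5, Col8a1 and Col8a2), because those settings admit fewer genes. The median log2 ratio of 2.29 was 1.99 with at least 1 unit in both groups, 1.55 with a pseudocount of 1 and 2.24 with 0.1. Adding 1 unit lowered the log2 ratio by over 0.1 in 8 genes, not in Enpp2 and Igf2, and turned 0 of them. Without Igf2, an alternative chosen after seeing the data, the median was 2.32. If the header of the deposited log2 column were right, both counts would be 0, as computed after seeing the data, the median -2.29, and the single genes Enpp2 (-2.32), Sostdc1 (-2.73), Wfdc2 (-2.26), Ace (-1.99), Sulf1 (-1.98), Col8a1 (-2.54), Col8a2 (-2.50), Col9a3 (-1.36), F5 (-2.90) and Igf2 (-1.38). No paired analysis was possible because the table holds no values per mouse, and for the same reason no replicate could be left out. Depth is unknown, so the precision of values under 1 unit cannot be stated.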

Other observations

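Further genes of secreted or matrix-related proteins were among the increases, and the following were picked after their values were seen. Pcolce, which enhances the processing of fibrillar procollagens, was at 9.01 units with CI-994 and 3.73 with vehicle (log2 ratio 1.27, p = 0.000332 in the authors' deposited table). The secreted semaphorin Sema3b was at 2.62 and 0.888 units (log2 ratio 1.56), the lipopolysaccharide-binding protein Lbp at 5.99 and 2.19 units (1.45), and the secreted phospholipase Pla2g5 at 2.49 and 0.721 units (1.79). The growth factor Bmp6, a ligand of the pathway that Sostdc1 antagonises, was at 5.29 and 3.03 units (log2 ratio 0.80). Sparc, a collagen-binding matrix protein, was at 155 and 124 units (log2 ratio 0.32). Genes of this kind were also found among the decreases, with Lect1, a cartilage matrix glycoprotein, at 1.10 and 2.88 units (log2 ratio -1.39) and the secreted plasminogen-binding lectin Clec3b at 1.06 and 3.80 units (-1.84).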
